A study of Mus musculus with 2 samples.

Results

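The genes described are the mitochondrial solute carriers of the Slc25 family in mouse intestinal stem cells. They were chosen by name: protein-coding genes whose symbol begins with Slc25a, with Slc25a20 and Slc25a1 set aside. The rule gave 45 genes of the 45706 gene IDs counted. RNA sequencing was done on stem cells of the crypt base, sorted for high GFP. The mice were of the reporter strain Lgr5-EGFP-IRES-creERT2, whose Lgr5 locus drives both a green fluorescent protein and a tamoxifen-inducible Cre recombinase. One library came from mice fed standard chow without restriction and one from fasted mice, all of them 4 months old and carrying the reporter. How long the fast lasted and how many mice were pooled in a library are not in the labels. The comparison asks how fasting alters gene expression in these stem cells.

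Slc25 proteins sit mostly in the inner mitochondrial membrane, which is otherwise closed to charged metabolites. Each exchanges or carries particular substrates, such as ADP for ATP, phosphate, dicarboxylates, amino acids, cofactors or iron-related cargo. Through them the respiratory chain is supplied, reducing equivalents are shuttled from the cytosol, and heme, nucleotides and urea cycle intermediates move between compartments. A few members work elsewhere, for example in peroxisomes or the outer membrane.

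The fed library held 6985316 counts and the fasted library 5020056 counts. Each group has 1 library, so nothing could be tested and a difference describes these 2 libraries. Ratios are fasted over fed after scaling by size factors, on a log2 scale, and the 95% interval in brackets covers counting error only. A gene counted as measured if it averaged 1 or more counts per 1000000 (CPM) and had 20 or more counts in sum. It was called higher or lower if it differed by 2-fold or more and its interval left out a ratio of 1. The 14 measured stem cell markers, among them Lgr5 and Olfm4, were present in both libraries, with a summed level of 18810 CPM when fed and 11898 CPM when fasted. Olfm4 alone made up 14373 and 8257 CPM of these sums. The median log2 ratio of the 14 was -0.27, with 1 called lower and 13 negative. Markers of immune cells summed to 42.4 and 30.1 CPM, and of 3 measured, 1 was called lower and 0 higher. Markers of stroma and endothelium summed to 2.15 and 1.39 CPM. Cd79a and Pdgfra were at 0 in both libraries. Goblet cell markers summed to 644.6 and 1258 CPM (3 of 9 called higher) and Paneth cell markers to 1181 and 1027 CPM (of 9 measured, 1 was called higher, 0 lower and 7 had negative ratios, with a median of -0.33), both secretory cell types of the crypt. Markers of absorptive enterocytes, the main differentiated cells of the villus, were not low. All 19 were measured and none was at 0. Of them, 12 were called higher and 0 lower, against 2.51% and 1.91% of all measured genes. Their summed level was 2719 CPM when fed and 4824 CPM when fasted. The markers rose unevenly: Fabp1 alone went from 29.8 to 806 CPM. Of the 19 ratios, 18 were positive and 1, that of Vil1 (-0.01), was negative. Fewer cells of a type and less RNA per cell cannot be told apart in such bulk libraries.

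Among the carriers kept by the rule, differences between the libraries were mostly small, with 1 exception. Slc25a20, Slc25a1 and the relatives with other symbols, such as Ucp2, are not in these counts. Of those set aside, Slc25a20 had 203 fed and 705 fasted counts. Its log2 ratio of 2.29 (2.07 to 2.53) met the threshold for a higher call. Slc25a1 had 1115 and 839 counts and a ratio of 0.09 (-0.04 to 0.22). Of 37 measured carriers, 1 was called higher, Slc25a34, and 0 were called lower, against 2.51% called higher and 1.91% called lower among all 12026 measured genes. One gene in 37 is a share near that background. The median log2 ratio of the measured carriers was 0.16 (1.12-fold), beside -0.02 for all measured genes. Within 1.5-fold of equality lay 30 of the 37 (81.1%), a share slightly below the 85.4% of all measured genes. Of the 37, 24 had a positive ratio, against 5756 of the 12026 measured genes. The counting interval lay wholly above a ratio of 1 for 15 carriers (40.5%, against 16.7% of all measured genes) and wholly below it for 0 carriers (0.0%, against 19.2%). Summed over the carriers kept by the rule, there were 20993 fed and 16763 fasted counts, a log2 ratio of 0.17 (0.14 to 0.20). This was 0.301% of the fed library (exact interval 0.296 to 0.305%) and 0.334% of the fasted library (0.329 to 0.339%). How far these small shifts exceed the variation between mice cannot be judged from 1 library per group.

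**Figure D1:**
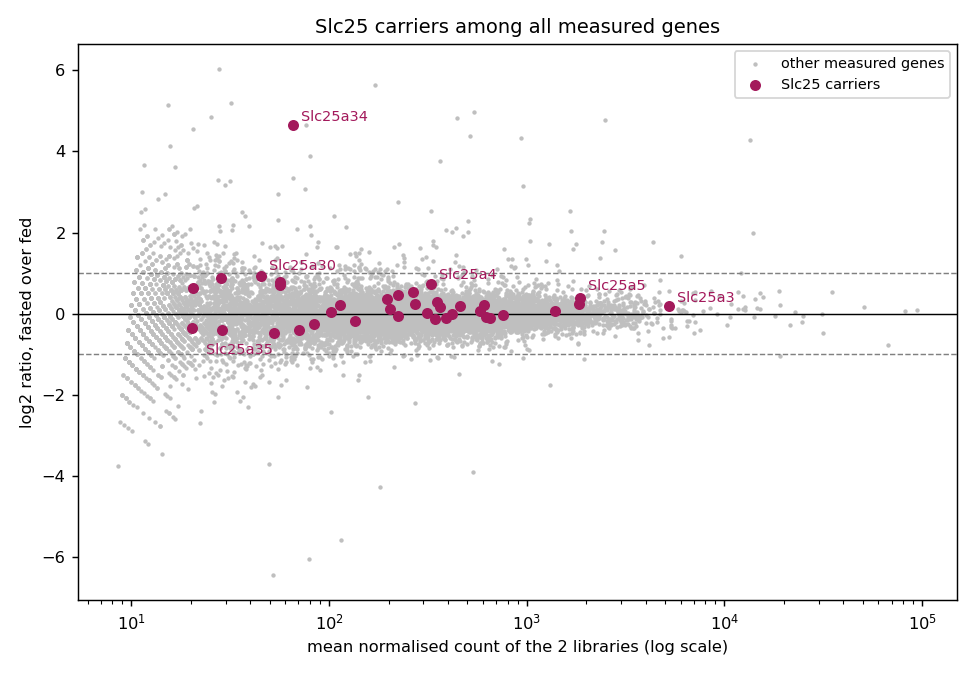
Each point is a measured gene, with its mean normalised count on a log axis and its log2 ratio of fasted over fed on the vertical axis; 1 gene without a fed count is not drawn, and dashed lines mark 2-fold. The 37 Slc25 carriers (dark points) lie between -0.48 and 0.93, except Slc25a34 at 4.64.

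Slc25a34 stood apart from the other measured carriers, since 0 of their 36 intervals overlapped its own. The gene (ENSMUSG00000040740) encodes a carrier without a settled substrate and lies on the minus strand of chromosome 4, 141618824 to 141623821 in GRCm38. The fed library held 6 counts and the fasted library 106, or 0.859 and 21.1 CPM. The log2 ratio was 4.64 (3.47 to 6.12), a 24.9-fold higher level in the fasted library, and ranked 11 among the ratios of all measured genes. The gene reached the minimum for measured genes through the fasted library alone, so it had to be higher there to enter. Its exons overlapped no other annotated gene, and 0 of its 2621 distinct runs of 50 transcript bases occurred in a transcript of another gene. The neighbouring gene on the same strand, Tmem82, chosen after its values were seen, had 174 and 136 counts, which gave a log2 ratio of 0.14 (-0.19 to 0.47). The fasted library also held the higher summed level of enterocyte markers given above (4824 against 2719 CPM), whose part in the Slc25a34 result was not tested.

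The promoter of Slc25a34 is shown because this carrier had the one large ratio among those kept by the rule. Beside it are the promoters of Slc25a5, the kept carrier of the highest level, and Slc25a30, the kept carrier of the next largest ratio. Each run is the 250 bases before the RefSeq start of transcription (GRCm38.p6), 5′ to 3′ on the gene's strand, with every CG dinucleotide in capitals. They lie at chr4:141623835-141624084 (minus strand), chrX:36795347-36795596 (plus strand) and chr14:75787038-75787287 (minus strand).
Slc25a34: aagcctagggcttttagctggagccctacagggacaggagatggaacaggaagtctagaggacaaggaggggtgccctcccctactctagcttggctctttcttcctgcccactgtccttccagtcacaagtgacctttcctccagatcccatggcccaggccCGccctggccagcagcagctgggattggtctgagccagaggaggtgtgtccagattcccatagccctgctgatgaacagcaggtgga
Slc25a5: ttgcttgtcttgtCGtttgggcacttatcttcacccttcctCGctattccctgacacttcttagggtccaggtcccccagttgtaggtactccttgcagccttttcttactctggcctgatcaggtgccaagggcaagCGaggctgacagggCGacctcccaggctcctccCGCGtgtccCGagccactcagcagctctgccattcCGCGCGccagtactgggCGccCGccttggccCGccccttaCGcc
Slc25a30: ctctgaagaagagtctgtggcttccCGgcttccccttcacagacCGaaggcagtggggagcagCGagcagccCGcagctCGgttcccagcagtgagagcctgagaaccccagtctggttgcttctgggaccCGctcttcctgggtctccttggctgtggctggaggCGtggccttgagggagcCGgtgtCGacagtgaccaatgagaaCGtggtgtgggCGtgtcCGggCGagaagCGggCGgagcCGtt

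The Slc25a34 run holds 1 CG dinucleotide at a GC content of 58.4%. The Slc25a5 run holds 14 at 61.6%, and the Slc25a30 run 16 at 64.4%. RefSeq promoter windows of 300 bases (250 before and 50 after the start) were matched for 34 of the 45 carriers, 44 windows in all. Taking for each carrier its window richest in CG, the observed over expected CG content was 0.0384 for Slc25a34, the lowest of the 34, and 5.44% of all 32851 windows in the mouse table lay below it. The next measured carriers from the bottom were Slc25a47 (0.328) and Slc25a45 (0.353), and the top was Slc25a15 (1.12). Across the 34 carriers CG content and level had a Spearman correlation of 0.452. The 5 carriers under 0.4 had a median level of 1.16 reads per kilobase of exon and 1000000 counts (RPKM), and the other 29 had 9.56 RPKM. Of the 5, Slc25a18 (0.0375 RPKM) and Slc25a21 (0 RPKM) were not measured, nor were Slc25a31, Slc25a43, Slc25a48 and Slc25a54 among the others. Slc25a22 lay just above this cut, at 0.407 with 5.73 RPKM. Across the 28 of the 34 that were measured, CG content and the log2 ratio had a correlation of -0.249, or -0.162 without Slc25a34. These are descriptions over genes whose windows also differ in base composition.

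**Figure D2:**
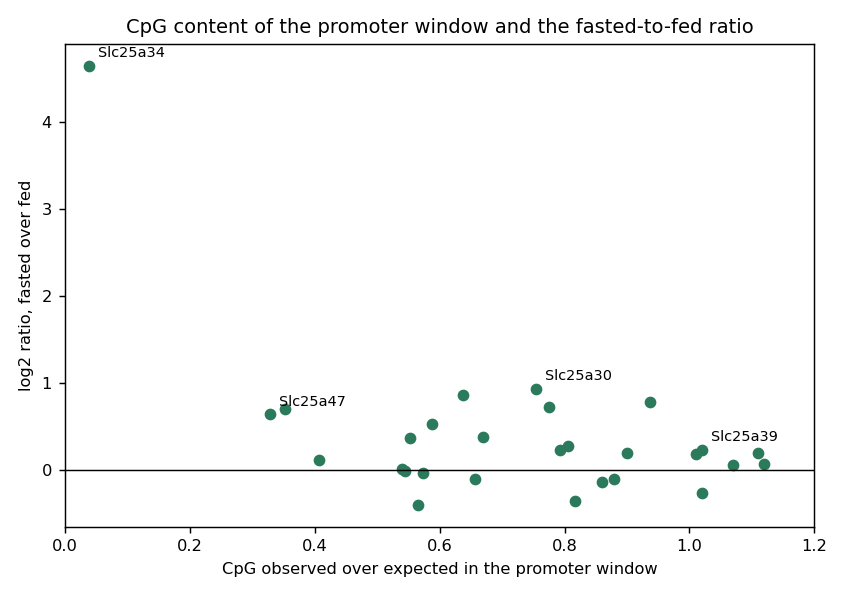
Each point is a measured carrier with a promoter window, with the observed over expected CG content of its richest window on the horizontal axis and the log2 ratio of fasted over fed on the vertical axis. Slc25a34 lies alone at 0.0384 and 4.64, while the other 27 carriers spread from 0.328 to 1.12 with ratios of at most 0.93.

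The hexamer AGGTCA, the unit that PPARs and other nuclear receptors read, was searched on both strands of the windows. It was in 4 of the 44 carrier windows (9.09%), those of Slc25a34, Slc25a39, Slc25a45 and Slc25a47, a lower share than the 16.3% of all windows. In Slc25a34 it reads tgacct on the printed strand, from position -119 relative to the start. The direct repeat of this hexamer with 1 base between its copies, the element of PPAR with RXR, was in 0 of the 44 carrier windows and in 0.0396% of all windows. A match describes letters in the window, and a missing match says only that these letters are not there.

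Levels of the carriers, per exon length, spanned several orders of magnitude, and their order was much the same in both libraries (Spearman correlation of 0.951 over the 37 measured carriers, as a description). The ADP/ATP carrier gene Slc25a5 was the highest, with 166.6 RPKM when fed and 214.2 RPKM when fasted. The phosphate carrier gene Slc25a3 followed with 150.6 and 168.4 RPKM, and the glutathione carrier gene Slc25a39 with 104 and 120.9 RPKM. Next came Slc25a11 (45.4 and 46.7 RPKM), Slc25a15 (41.1 and 42.5 RPKM) and Slc25a10 (37.7 and 36.6 RPKM). The last 4 of the 10 highest were Slc25a17 (25.0 and 24.5 RPKM), Slc25a4 (17.8 and 29.0 RPKM), Slc25a28 (19.3 and 21.9 RPKM) and Slc25a51 (17.5 and 19.9 RPKM). Of the summed counts of the carriers kept by the rule, Slc25a3 alone took 27.8% in the fed library (exact interval 27.2 to 28.4%). In the fasted library it took 28.0% (27.3 to 28.7%). Of the 8 carriers not measured, Slc25a21, Slc25a31, Slc25a41 and Slc25a54 had 0 counts in both libraries. A count of 0 allows a level of up to 0.429 CPM (fed) or 0.598 CPM (fasted), which is that of 3 counts. Slc25a2 and Slc25a18 each had 1 fed and 0 fasted counts, Slc25a43 had 4 and 2, and Slc25a48 had 7 and 3.

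**Figure D3:**
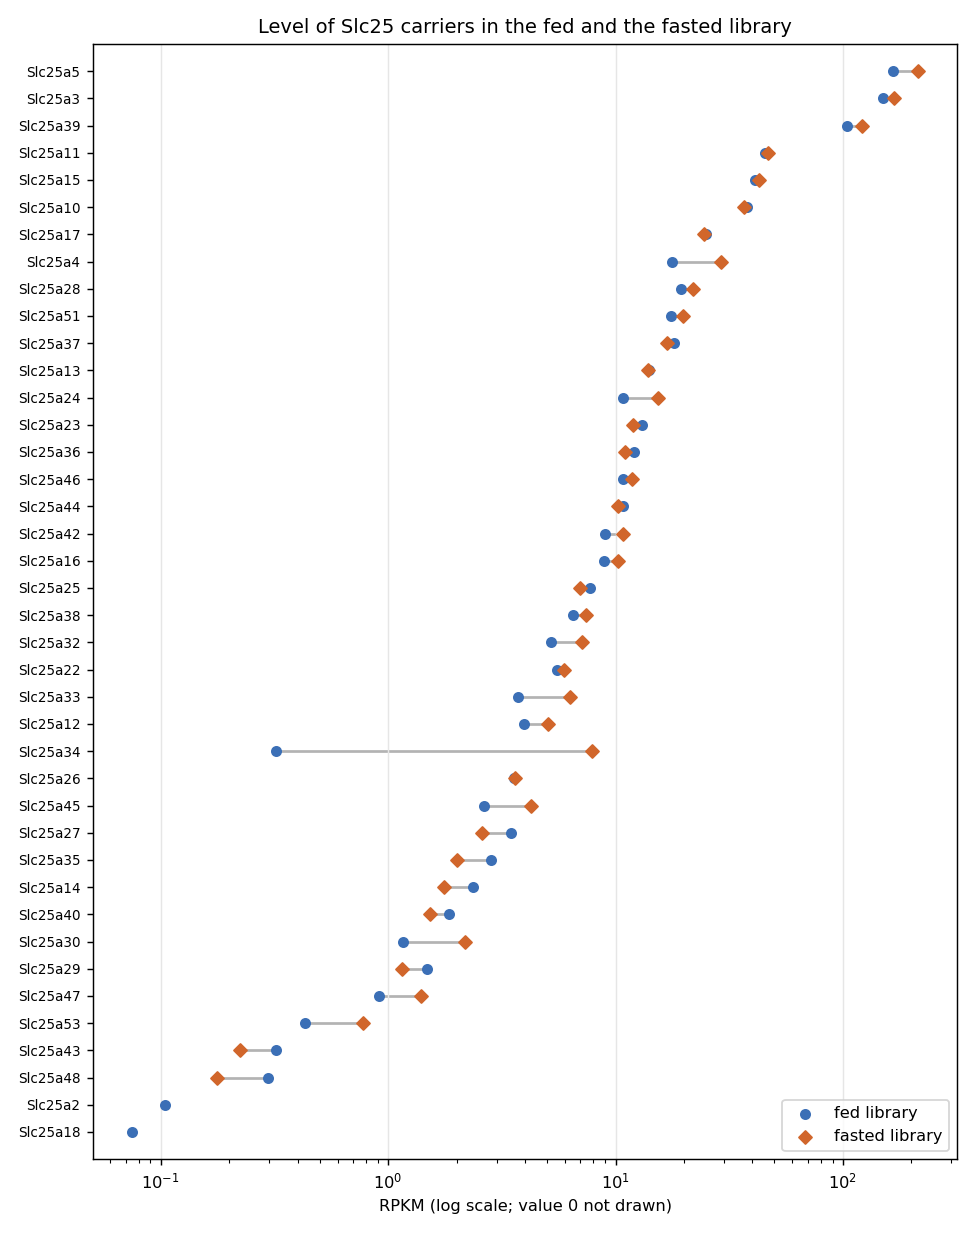
Level of the carriers with at least 1 count (1 not drawn), in RPKM on a log axis, as a circle for the fed and a diamond for the fasted library, ordered by the mean of both. Only Slc25a34 moves far along the axis, from 0.322 to 7.91 RPKM, while Slc25a5, Slc25a3 and Slc25a39 stay above 100 RPKM in both libraries.

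The carriers that supply ATP synthesis had small positive ratios. All 3 measured members of this class had intervals above a ratio of 1, with a median log2 ratio of 0.38, and 0 were called higher. Slc25a4 (Ant1), the ADP/ATP carrier typical of heart and muscle, went from 292 to 342 counts, or from 245.7 to 406.4 normalised counts. Its log2 ratio was 0.73 (0.50 to 0.96), a 1.65-fold higher level that did not reach 2-fold. Slc25a5 (Ant2), the ADP/ATP carrier typical of dividing cells, went from 1915 to 1770 counts, or from 1612 to 2103 normalised counts, a log2 ratio of 0.38 (0.29 to 0.48). This value is less certain, because 33.8% of the runs of 50 bases in Slc25a5 transcripts also occur in transcripts of 9 other genes, and it became 0.26 after a correction for exon length. Slc25a3, the phosphate carrier, went from 5837 to 4693 counts, or from 4912 to 5577 normalised counts, a log2 ratio of 0.18 (0.13 to 0.24). Slc25a31, the ADP/ATP carrier of the germ line, had no count.

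The ATP-Mg/phosphate carriers, which adjust the matrix pool of adenine nucleotides in response to calcium, did not share a direction. Slc25a24 had 259 fed and 266 fasted counts, or 218 and 316.1 normalised counts, and a log2 ratio of 0.54 (0.28 to 0.79). Slc25a25 had 426 and 276 counts and a ratio of -0.13 (-0.35 to 0.09), and Slc25a23 had 482 and 318 counts and a ratio of -0.10 (-0.31 to 0.11). The interval of Slc25a24 thus overlapped neither of the others. Exons of Naif1 on the opposite strand, with 82 and 37 counts, overlap 4.82% of the exon bases of Slc25a25. The strand setting is not known, so reads of that stretch cannot be assigned with certainty.

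Carriers that pass dicarboxylates were close to equality. Of the 3 measured carriers of aspartate and glutamate, 1 had an interval above a ratio of 1, and 0 were called. Slc25a11, the oxoglutarate/malate carrier, had 672 and 497 counts, which gave a log2 ratio of 0.06 (-0.11 to 0.23). Slc25a10, which exchanges malate or succinate for phosphate, had 911 and 634 counts and a ratio of -0.03 (-0.17 to 0.12). Both intervals include a ratio of 1. Exons of Rnf167 on the opposite strand, with 500 and 403 counts, overlap 8.92% of the exon bases of Slc25a11. The strand setting is not known, so reads of that stretch cannot be assigned with certainty. Slc25a12 (aralar) and Slc25a13 (citrin) are calcium-regulated exchangers of aspartate for glutamate and, with Slc25a11, form the membrane steps of the malate-aspartate shuttle. Slc25a12 had 203 and 186 counts, which gave a log2 ratio of 0.37 (0.08 to 0.67), while Slc25a13 had 371 and 266 counts and 0.02 (-0.21 to 0.25). The glutamate carrier gene Slc25a22 had 232 and 178 counts and a ratio of 0.12 (-0.17 to 0.40). The enzymes of the same shuttle had 4 of 4 positive ratios, 0 called higher or lower and a median of 0.20, from 0.06 for Mdh2 to 0.23 for Got2.

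Among the other amino acid carriers, 0 of 4 measured members were called and all 4 intervals included a ratio of 1. Slc25a15, which exchanges ornithine for citrulline in the urea cycle, was abundant, with 1618 and 1202 counts, which gave a log2 ratio of 0.07 (-0.04 to 0.18). Slc25a38, which brings in glycine for heme synthesis, had 125 and 102 counts and 0.20 (-0.19 to 0.59). Slc25a29, a carrier of basic amino acids, had 27 and 15 counts and -0.35 (-1.37 to 0.61), an interval that includes equality and also a 2-fold lower level. Slc25a44, which carries branched-chain amino acids, had 269 and 184 counts and -0.05 (-0.33 to 0.23).

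The cofactor and pyrimidine nucleotide carriers had 0 of 9 measured members called, a median log2 ratio of 0.21 and 4 intervals above a ratio of 1. Slc25a33, a pyrimidine nucleotide carrier, had 49 and 60 counts, or 41.2 and 71.3 normalised counts, and the largest ratio of the class, 0.79 (0.22 to 1.36). An antisense gene, Gm13068, overlaps 14.9% of its exon bases and held 0 fed counts and 1 fasted count. The strand setting of the counting is not known, so reads of this stretch cannot be assigned with certainty. Slc25a32, linked to folate and FAD transport, had 221 and 217 counts and 0.47 (0.19 to 0.75). The other intervals above a ratio of 1 were those of Slc25a42, a carrier of coenzyme A, at 0.28 (0.07 to 0.50) and of Slc25a51, the NAD carrier, at 0.21 (0.04 to 0.37). Slc25a16, linked to coenzyme A, had 0.23 (-0.02 to 0.48). Slc25a36, the other pyrimidine nucleotide carrier, had 805 and 531 counts and -0.10 (-0.26 to 0.06). The peroxisomal carrier gene Slc25a17 had -0.01 (-0.21 to 0.19), and the S-adenosylmethionine carrier gene Slc25a26 had 0.03 (-0.38 to 0.44). Exons of Lrig1 on the opposite strand, with 3385 and 1931 counts, overlap 3.0% of the exon bases of Slc25a26. Reads of that stretch cannot be assigned with certainty either.

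Of the 4 iron and glutathione carriers, 2 had intervals above a ratio of 1. Slc25a39, which imports glutathione, had 2002 and 1672 counts, or 1685 and 1987 normalised counts, and a log2 ratio of 0.24 (0.14 to 0.33), which became 0.13 after the correction for exon length. Its close relative Slc25a40 had 108 and 64 counts and -0.26 (-0.73 to 0.20). Slc25a28 (mitoferrin 2), an iron importer, had 506 and 412 counts and 0.20 (0.01 to 0.39), and Slc25a37 (mitoferrin 1), best known from red cell precursors, had 761 and 507 counts and -0.09 (-0.25 to 0.08). None of the 4 was called.

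**Figure D4:**
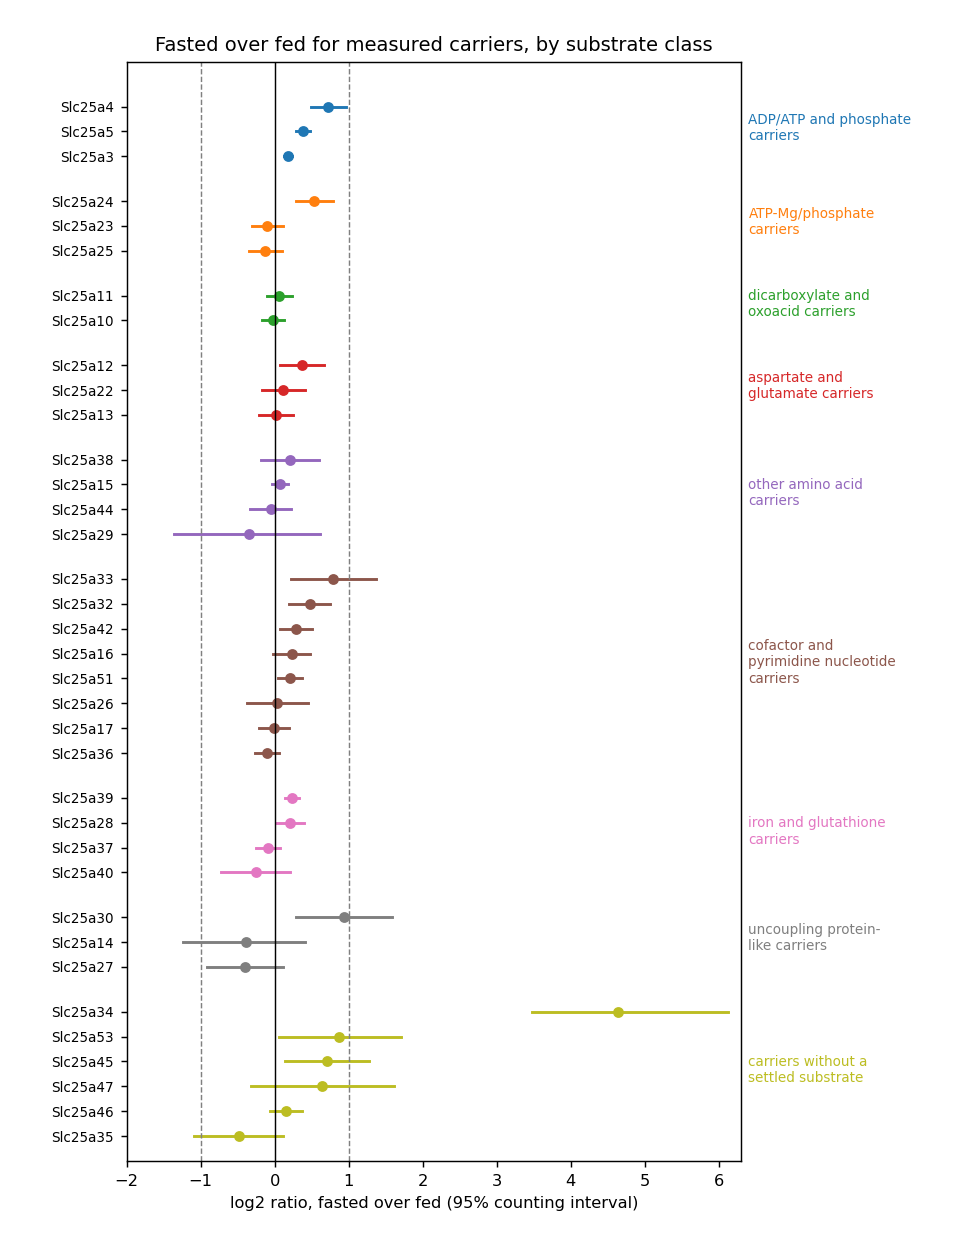
Log2 ratio of fasted over fed for the measured carriers (1 of 37 not drawn), grouped by substrate class, with bars for the 95% counting interval and dashed lines at 2-fold. Slc25a34 is the one carrier whose point lies beyond a dashed line, and no interval drawn lies wholly below 0.

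Carriers related to the uncoupling proteins were sparse, with 0 of 3 called and a median log2 ratio of -0.40. Slc25a30 had 37 and 50 counts, or 31.1 and 59.4 normalised counts, and a log2 ratio of 0.93 (0.29 to 1.59), 1.91-fold and just short of the 2-fold threshold. Slc25a27 had 95 and 51 counts and -0.40 (-0.92 to 0.11), and Slc25a14 had 39 and 21 counts and -0.40 (-1.23 to 0.41). The intervals of the latter pair include equality, so no direction can be given for them.

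Of the 6 measured carriers without a settled substrate, 1, Slc25a34, was called higher and 5 had positive ratios, with a median of 0.68. Slc25a53 had 24 and 31 counts and 0.87 (0.05 to 1.70), and Slc25a45 had 51 and 59 counts and 0.71 (0.14 to 1.28). Slc25a47, best known from liver, had 19 and 21 counts and 0.64 (-0.32 to 1.62). Slc25a46, an outer membrane protein involved in mitochondrial shape, had 409 and 323 counts and 0.16 (-0.06 to 0.37). Slc25a35, a close relative of Slc25a34, had 73 and 37 counts and the lowest ratio of all measured carriers, -0.48 (-1.09 to 0.11). Its exons overlap those of Rangrf on the opposite strand over 31.3% of their bases, and Rangrf held 1 count in each library, so reads of this stretch cannot be assigned with certainty.

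At a threshold of 1.5-fold, 6 carriers were higher and 0 lower, against 5.11% and 5.05% of all measured genes. The 6 were Slc25a4, Slc25a30, Slc25a33, Slc25a34, Slc25a45 and Slc25a53. Apart from Slc25a4, each of them had at most 106 counts in either library. Carriers with a mean normalised count under 100 had ratios from -0.48 to 4.64 (11 genes, median 0.64), those from 100 to 1000 had ratios of at most 0.73 (22 genes, median 0.09), and the 4 above 1000 had 0.07 to 0.38 (median 0.21). All genes in the same bins had medians of -0.03, -0.02 and 0.02. The median width of the carriers' counting intervals was 1.30 in the lowest and 0.19 in the highest bin, on the log2 scale.

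Shares of reads within pairs of related carriers need no scaling between the libraries. The 9 pairs were chosen after the values were seen. Slc25a4 made up 13.2% of the reads of Slc25a4 and Slc25a5 in the fed library (exact interval 11.8 to 14.7%) and 16.2% in the fasted library (14.6 to 17.8%). Slc25a24 made up 37.8% (34.2 to 41.6%) and 49.1% (44.8 to 53.4%) of the reads it shares with Slc25a25, and 35.0% (31.5 to 38.5%) and 45.5% (41.5 to 49.7%) of those with Slc25a23. Slc25a33 made up 5.74% (4.27 to 7.51%) and 10.2% (7.84 to 12.9%) of the reads of the pyrimidine nucleotide pair with Slc25a36. Slc25a34 took 7.59% (2.84 to 15.8%) of the reads of Slc25a34 and Slc25a35 in the fed library and 74.1% (66.1 to 81.1%) in the fasted library. Slc25a37 made up 60.1% (57.3 to 62.8%) and 55.2% (51.9 to 58.4%) of the reads of the mitoferrins, and Slc25a12 35.4% (31.5 to 39.4%) and 41.2% (36.6 to 45.8%) of those with Slc25a13. Slc25a40 held 5.12% (4.22 to 6.15%) and 3.69% (2.85 to 4.68%) beside Slc25a39, and Slc25a16 held 44.0% (40.2 to 47.8%) and 43.1% (39.0 to 47.3%) beside Slc25a42. Because the pairs were picked with their values in view, no count of differing pairs is given.

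**Figure D5:**
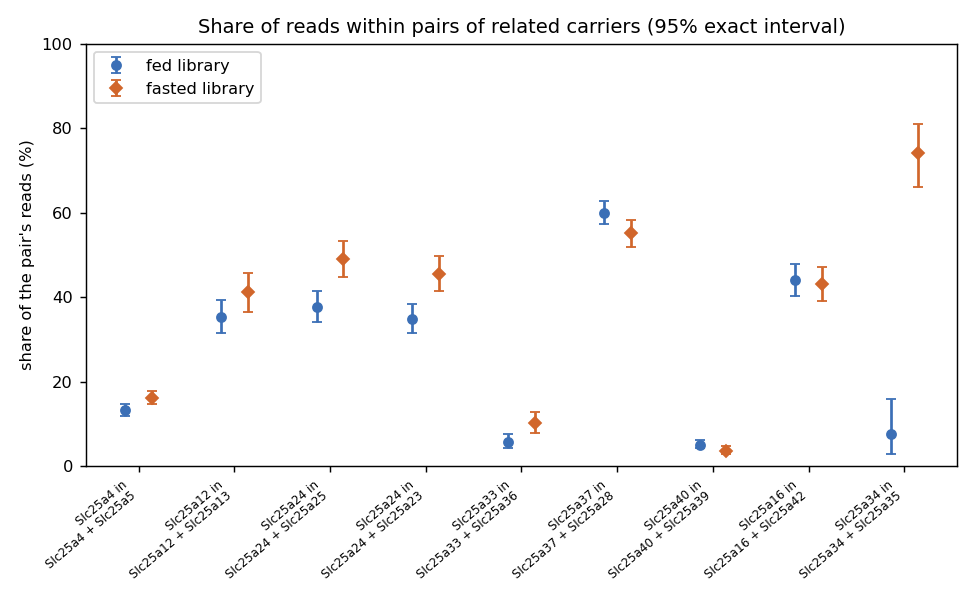
Share of reads, in percent, that the first carrier of each pair takes of the pair's sum, as a circle for the fed and a diamond for the fasted library with the exact 95% interval. The share of Slc25a34 goes from 7.59% to 74.1%, and that of Slc25a24 from 37.8% to 49.1% beside Slc25a25.

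Of the relatives with other symbols, Ucp2 differed most. Ucp2, a mitochondrial carrier of the uncoupling protein group, went from 3876 to 7388 counts, or from 3262 to 8779 normalised counts. Its log2 ratio of 1.43 (1.37 to 1.48), 2.69-fold, was the 1 of 3 measured relatives called higher. The outer membrane relatives Mtch1 and Mtch2 had -0.0029 (-0.11 to 0.10) and 0.18 (0.07 to 0.28). Ucp1 had 1 fed count and 0 fasted counts, and Ucp3 had 1 in each library. Enterocyte markers were higher in the same library (summed level 2719 and 4824 CPM), and their part in the Ucp2 difference was not tested.

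Proteins that bring carriers into the inner membrane, the import receptor of the outer membrane and the TIM22 complex with its small chaperones, had 0 of 10 genes called and 9 of 10 positive ratios, with a median of 0.31. Their ratios ran from -0.02 (-0.50 to 0.46) for Timm10b to 0.70 (-0.01 to 1.40) for Timm8a1. Tomm70a, the receptor, had 2034 and 1821 counts and 0.34 (0.25 to 0.43). Other mitochondrial transporters, among them pyruvate carrier subunits, sideroflexins and the porins of the outer membrane, had 0 of 13 measured genes called and a median of -0.0035. They ran from -0.52 (-1.05 to 0.0015) for Mpc1, a subunit of the pyruvate carrier, to 0.24 (0.16 to 0.32) for the porin gene Vdac1.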

How the data were processed

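The authors deposited 1 table of raw counts per Ensembl gene for each library, and a table whose signal values equal the counts divided by 1 factor per library (1.19 and 0.842), as tested on the values: 100% of them matched within 0.0051. FastQC, STAR, HTSeq and DESeq and the builds GRCm38 and mm10 are named, without versions, per the submitters' processing notes. Annotation and strand setting were not given in the sources used here. Of 45706 IDs, 45143 matched GENCODE M21 (GRCm38), which gave symbols, gene types, coordinates and exon lengths. Counts were scaled by median-of-ratios factors, and exact 95% Clopper-Pearson intervals came from the fasted share of a gene's reads (scipy 1.17.1). The procedure was tested on counts simulated with counting error only, which says nothing about variation between mice or libraries. Runs of 50 bases were compared over all GENCODE transcripts. RPKM used all exon bases of a gene. All carriers entered the counts and medians, and 1 is not reported here by name. The members, substrate classes and lists were chosen with earlier results of these data known. Named are the carriers past the threshold, the 10 highest by RPKM and the 2 of each class with the largest absolute ratio. Of the other lists, the called genes and the extremes are named, except for the cell type markers. These markers are given mainly as sums and counts. Others named were chosen after their values were seen. Alternatives were upper-quartile factors, TMM (edgeR 4.0.16), scaling to total counts, the normalised table, no filter, 5 CPM, 1.5-fold and 3-fold thresholds, and a correction by a running median over 201 genes ordered by exon length.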

Additional observations from a re-analysis of the deposited data

How the results depend on the processing

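Slc25a34 was the 1 carrier called higher, and 0 were called lower, under upper-quartile factors, TMM, scaling to total counts, the normalised table, no filter, a minimum of 5 CPM, the exon length correction and 3-fold; at 1.5-fold, a looser threshold, 6 were higher and 0 lower. The median of 0.16 for the measured carriers became 0.12 without the filter, which adds sparse carriers with counts in both libraries. Slc25a2 and Slc25a18, with 0 fasted counts, have no finite ratio and did not enter this median. The exon length correction gave 0.26 for the ADP/ATP and phosphate carriers. The median of carriers without a settled substrate became 0.40 without the filter and 0.43 at 5 CPM, as fewer or more genes entered. The median of the uncoupling protein-like carriers turned from -0.40 to 0.27 at 5 CPM, where fewer of them remained. Near-zero medians also turned sign for the dicarboxylate carriers (-0.0025 with total counts, -0.07 with length correction) and the other amino acid carriers (-0.01 with total counts). Alternatives were run for 23 carriers, not for every carrier with a printed value. Of 205 such values, 2 left their main interval, both under length correction, and 2 near-zero ones changed sign, Slc25a11 (0.06 to -0.06, length correction) and Slc25a17 (-0.0081 to 0.02, upper-quartile factors). No paired analysis was possible because each group holds 1 library, and no library could be left out for the same reason.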
